A study of Mus musculus with 18 samples.

Results

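The genes of MHC class II presentation were followed through 3 adipose tissues of mice on a high-fat diet (HFD). The set was fixed by name and holds 10 of the 52093 gene symbols in the deposited tables. Its members are the peptide-binding chains H2-Aa, H2-Ab1 and H2-Eb1, the peptide-loading chains H2-DMa, H2-DMb1 and H2-DMb2, the loading inhibitors H2-Oa and H2-Ob, the invariant chain Cd74 and the transactivator Ciita. No measured value entered that choice, although earlier results of these data were known when it was made. RNA was sequenced from 6 samples of iWAT adipocytes, 6 of eWAT adipocytes and 6 of whole BAT, all from male, wild-type C57BL/6 mice (C57BL/6J or C57BL/6NTac, on which the sources used here differ) of 16 weeks of age that had been fed a HFD for 12 weeks. The isolated adipocytes are called iWAT and eWAT below. One treatment field of the labels reads regular chow for all samples, against the sample titles and the extraction protocol, and the samples were taken as HFD. White fat was digested with collagenase and the floating layer of mature adipocytes was collected, with no sort described, whereas BAT was frozen whole, although one label field calls it adipocytes. Every group therefore carries the same genotype and diet, and tissue, preparation and sequencing lane (lanes 1 and 2 for white fat, lanes 3 and 4 for BAT) cannot be told apart in any comparison with BAT.

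MHC class II molecules show peptides from engulfed or endosomal proteins to CD4+ T cells. An alpha and a beta chain (H2-Aa with H2-Ab1 for I-A) assemble on the invariant chain, which blocks the groove and guides the complex to endosomes. There, cathepsins trim the invariant chain, H2-DM exchanges its last fragment for peptide, and H2-DO (H2-Oa with H2-Ob), known best from B cells, holds H2-DM back. Macrophages, dendritic cells and B cells carry class II constitutively or on activation. Ciita, which interferon-gamma induces in many other cells, adipocytes of obese mice included, drives transcription from a shared promoter element, the X and Y boxes, on which RFX, CREB and NF-Y factors sit.

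The promoter stretches of 6 members are printed because that shared element is what the family has in common at the DNA level. RefSeq windows (GRCm38.p6, 250 bases before to 50 after a start) were given for 7 members, H2-Aa, H2-Eb1, H2-DMa, H2-DMb1, H2-DMb2, H2-Oa and H2-Ob, and not for H2-Ab1, Cd74 or Ciita. The Y box was searched as GATTGG and the X box as AACNNATGATGC, on both strands; the latter are the letters shared by the windows of H2-Eb1, H2-DMb1, H2-DMb2 and H2-Ob. The lines run 5′ to 3′ on the strand of the gene, with the matched letters in capitals.
H2-Eb1: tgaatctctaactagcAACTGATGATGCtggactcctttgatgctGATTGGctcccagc
H2-DMb1: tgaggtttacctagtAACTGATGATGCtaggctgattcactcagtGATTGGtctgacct
H2-DMb2: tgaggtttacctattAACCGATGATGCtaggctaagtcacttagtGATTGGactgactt
H2-Ob: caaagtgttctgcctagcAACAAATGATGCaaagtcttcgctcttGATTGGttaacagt
H2-Aa: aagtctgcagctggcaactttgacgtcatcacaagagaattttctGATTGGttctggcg
H2-Oa: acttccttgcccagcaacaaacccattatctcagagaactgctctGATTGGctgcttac
These stretches lie at chr17:34305762-34305820 (+) for H2-Eb1, chr17:34153084-34153142 (+) for H2-DMb1, chr17:34145113-34145171 (+) for H2-DMb2, chr17:34238802-34238860 (+) for H2-Ob, chr17:34287859-34287917 (-) for H2-Aa and chr17:34092290-34092348 (+) for H2-Oa. All 6 are upstream of the annotated start, with the Y box starting 44 (H2-Oa) to 91 (H2-DMb2) bases before it.

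H2-Eb1, H2-DMb1, H2-DMb2 and H2-Ob held both sets of letters on the strand of the gene, with 17, 18, 18 and 15 bases between them. H2-Aa and H2-Oa held the Y box letters alone, as did 1 of the 2 windows of H2-DMa. A window without the X box letters may still hold another form of the X box, since no other form was searched. Of all 32851 windows in the table, 0.0396% held the X box letters, 16.1% the Y box letters and 0.0183% both. The arrangement with the Y box 10 to 25 bases after the X box on 1 strand was found in 4 windows, which are those of the 4 members just named. This is a description of letters, since the X box letters were read from these same members. H2-Ob, the only one of these 4 not called higher in white fat than in BAT (below), was among the members read. Its X box match was thus fixed in advance and says nothing about its expression.

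Reads on the deposited rows numbered 24655056 to 42518483 per library (medians 28898601 in iWAT, 28885180 in eWAT and 37643115 in BAT). No pair of libraries of 1 tissue agreed within sampling noise. Adipocyte markers were present in all 18 libraries (summed RPKM of 7 markers 2552 or more; RPKM is reads scaled to row length and library total), and the 4 brown adipocyte markers summed to 2689 to 3900 RPKM in BAT against at most 44.4 in white fat. The labels number the mice but do not say that equal numbers are the same animal, and they name no separate cultures or pools. TMM scaling, which sets libraries level over the bulk of genes, moved fitted values toward BAT. Without it, all genes had a median log2 fold change of 0.87 for iWAT over BAT and 0.89 for eWAT over BAT, so fitted folds below are smaller than the RPKM ratios for genes higher in white fat and larger for genes higher in BAT.

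Class II transcripts were most abundant in eWAT, intermediate in iWAT and lowest in BAT. The 10 members together took 0.201% ± 0.0288 of all reads in eWAT, 0.0740% ± 0.0154 in iWAT and 0.0102% ± 0.00302 in BAT (mean ± SD, n = 6). This order held with no overlap between any 2 tissues in 8 members, the exceptions being H2-Oa and H2-Ob. In bulk RNA, fewer cells of a type and less RNA per cell cannot be told apart.

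**Figure D1:**
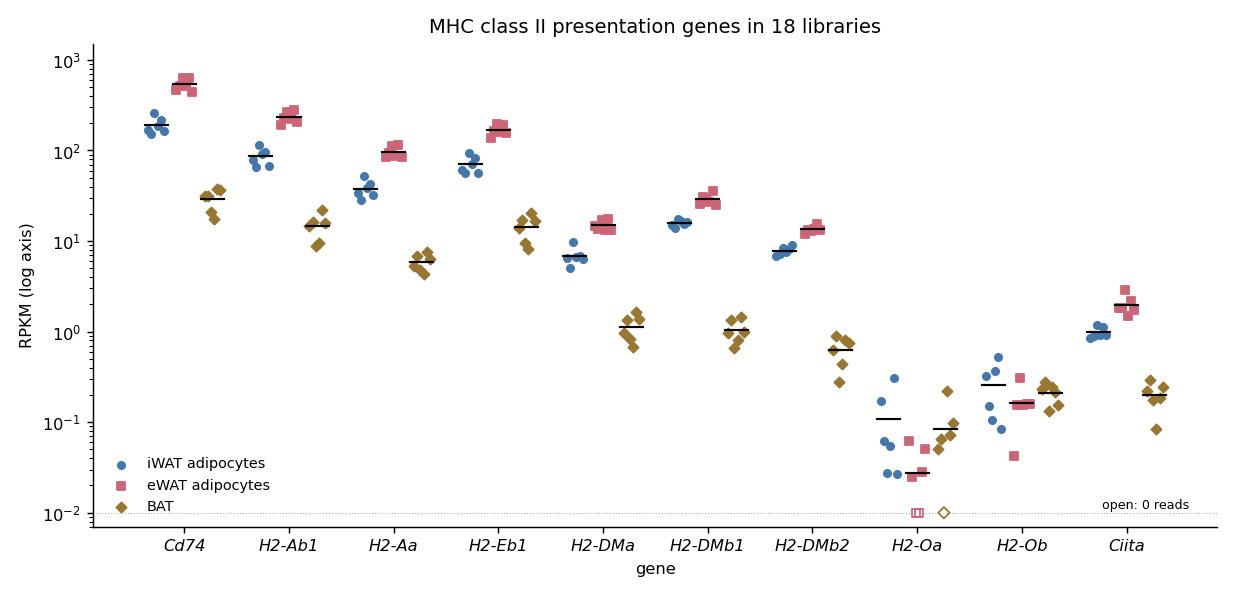
RPKM of the 10 members (log axis) in each of 18 libraries, with 6 points per gene and tissue and a black line at the mean; open symbols mark libraries with 0 reads. Cd74 is the highest member in every tissue, and H2-Oa and H2-Ob sit below 1 RPKM in all libraries with overlapping tissues.

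Of the 9 members with enough reads to be tested, 8 were higher in eWAT than in iWAT, by 1.71-fold to 2.80-fold (edgeR, largest adjusted p = 5.13e-05). Among all 19623 genes tested, 68.6% passed in either direction and 34.5% were higher in eWAT, and 22.8% were higher there without overlap. Against BAT, 8 of 9 were higher in iWAT, by 3.21-fold to 9.94-fold (edgeR, largest adjusted p = 4.08e-07), beside 38.1% of 19745 genes (75.3% in either direction, and 51.8% higher in iWAT without overlap). The same 8 were higher in eWAT than in BAT, by 6.58-fold to 18.4-fold, beside 41.1% of 20076 genes (82.5% in either direction, and 49.2% higher in eWAT without overlap). The members' median log2 fold change was -1.11 for iWAT over eWAT, 1.97 for iWAT over BAT and 3.42 for eWAT over BAT. Over all genes tested these medians were 0.0014, 0.014 and -0.017. The comparisons share their samples, so their values stand side by side and are not independent of each other.

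**Figure D2:**
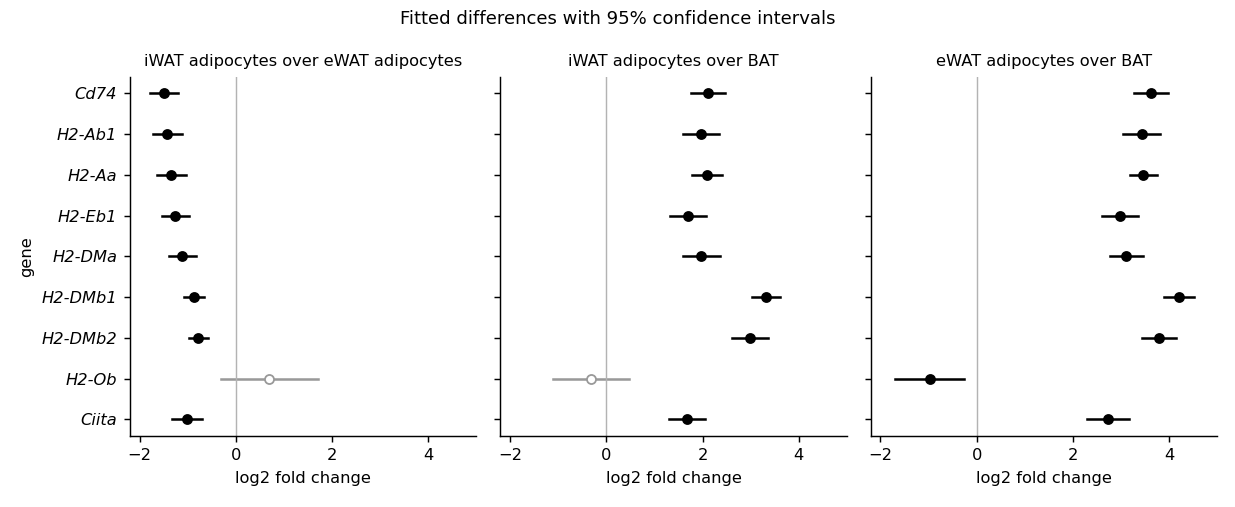
Fitted log2 fold change (point) and 95% confidence interval (line) of the 9 tested members in the 3 tissue comparisons; filled black, adjusted p under 0.05, and open grey, above it. Of the 9, 8 lie left of 0 in iWAT over eWAT and right of 0 against BAT, with H2-DMb1 farthest right and H2-Ob alone left of 0.

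Cd74, the invariant chain that fills the class II groove until loading, was the most abundant member in every tissue. Its RPKM ran from 152.8 to 257.0 (median 176.6) in iWAT, from 445.9 to 637.0 (median 520.9) in eWAT and from 17.7 to 37.4 (median 31.3) in BAT. The ranges were far apart, the lowest eWAT value lying above the highest iWAT value. Cd74 showed the largest difference between the white depots among the members, at -1.49 on the log2 scale (95% confidence interval -1.79 to -1.19, edgeR adjusted p = 1.33e-06), an interval that holds the value of H2-Ab1. Cd74 lies on chromosome 18, apart from the H2 genes, whose 8 rows lie within 224 kb of chromosome 17 (chr17:34229324-34453619 in mm9).

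H2-Ab1 encodes the I-A beta chain. Its RPKM was 66.0 to 114.2 (median 85.2) in iWAT, 191.1 to 279.6 (median 224.0) in eWAT and 8.81 to 21.9 (median 15.2) in BAT. H2-Aa, its alpha partner, was listed at 28.6 to 52.2 (median 36.3), 84.6 to 114.0 (median 91.0) and 4.28 to 7.57 RPKM (median 5.80) in the same order. Both genes separated the tissues completely and by similar amounts, with fitted log2 fold changes for iWAT over eWAT of -1.43 (SE 0.14) for H2-Ab1 and -1.34 (SE 0.14) for H2-Aa. For eWAT over BAT, they were 3.42 (SE 0.18) and 3.46 (SE 0.13).

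H2-Eb1 encodes the I-E beta chain. It was found at 56.6 to 92.8 RPKM (median 66.1) in iWAT, 137.6 to 198.0 (median 161.6) in eWAT and 8.15 to 20.6 (median 15.3) in BAT. Its log2 fold changes were -1.25 (SE 0.13) for iWAT over eWAT and 2.98 (SE 0.17) for eWAT over BAT. The alpha partner of I-E is not made in C57BL/6 mice, and the row H2-Ea-ps held 0 reads in 17 libraries and 1 read in the other, each 0 allowing up to 3 reads. The transcript of the I-E beta chain was thus measured without that of its partner in all 3 tissues.

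Levels of these chains depend on the length of the deposited row. The H2-Aa row (chr17:34406609-34424768, minus strand) counts 4381 bases, while its longest transcript in GENCODE vM1, on the same build, has 1132. Per kilobase of the longest GENCODE transcript, H2-Aa stood at 147.0 ± 33.1 RPKM in iWAT, above H2-Ab1 (85.2 ± 18.3). In eWAT the same scale gave 372.5 ± 51.1 for H2-Aa against 229.4 ± 34.5 for H2-Ab1, and in BAT 22.7 ± 4.94 against 14.4 ± 4.77. The order of H2-Aa and H2-Ab1 within a library thus turned with the length used, while the tissue differences of each gene did not depend on it.

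The H2-DM chains load peptide by releasing the last piece of the invariant chain. H2-DMa, the alpha chain, was at 5.04 to 9.66 RPKM (median 6.65) in iWAT, 13.1 to 17.7 (median 13.97) in eWAT and 0.674 to 1.66 (median 1.15) in BAT. H2-DMb1, a beta chain, was at 13.9 to 17.7 (median 15.8), 25.01 to 35.8 (median 28.4) and 0.667 to 1.47 (median 0.972). H2-DMb2, the second beta chain, was at 6.77 to 8.97 (median 7.88), 12.1 to 15.6 (median 13.2) and 0.275 to 0.889 (median 0.690). Each chain separated the 3 tissues without overlap, and in BAT H2-DMb1 rested on 21 to 67 reads and H2-DMb2 on 10 to 51.

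The 2 beta chains showed the smallest differences between the white depots and the largest ones from BAT among the 8 members. For H2-DMb1, the log2 fold change was -0.86 (SE 0.09) for iWAT over eWAT, 3.31 (SE 0.14) for iWAT over BAT and 4.20 (SE 0.15) for eWAT over BAT. H2-DMb2 gave -0.78 (SE 0.09), 2.99 (SE 0.17) and 3.79 (SE 0.16). The 95% confidence intervals of H2-DMb2 (3.44 to 4.14) and Cd74 (3.27 to 3.98) overlapped in the last comparison. Between the white depots, those of H2-DMb1 (-1.066 to -0.660) and H2-DMb2 (-0.965 to -0.586) overlapped that of Ciita (-1.325 to -0.695). Both also overlapped that of H2-DMa (-1.395 to -0.821). H2-DMa stayed near the I-A chains, with -1.11 (SE 0.13), 1.97 (SE 0.18) and 3.11 (SE 0.16). H2-DMb1 and H2-DMb2 are near-identical copies and the row of H2-DMa (chr17:34259777-34312350) spans both, so the split of reads among the 3 is uncertain.

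H2-Oa and H2-Ob, the chains of the H2-DM inhibitor, were the members at the edge of detection. H2-Oa had 1 to 11 reads per library in iWAT, 0 to 3 in eWAT and 0 to 6 in BAT, a mean too low to be tested. H2-Ob had 9 to 54 reads in iWAT (0.0846 to 0.525 RPKM, median 0.239), 6 to 31 in eWAT (0.0428 to 0.306, median 0.157) and 11 to 37 in BAT (0.132 to 0.281, median 0.223). All 3 tissues overlapped for both genes. The fitted log2 fold change of H2-Ob was 0.70 for iWAT over eWAT (95% confidence interval -0.30 to 1.70, edgeR adjusted p = 0.197). Leaving out mouse 5 of iWAT moved that value to 0.40.

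H2-Ob was the member that went the other way against BAT. It was called higher in BAT than in eWAT, by a log2 fold change of -0.98 (SE 0.33; adjusted p = 0.0133 with edgeR), a direction that 41.4% of all genes shared. That call rests on the scaling: without TMM the log2 fold change was -0.08 (adjusted p = 0.837). For iWAT over BAT it was -0.31 (95% confidence interval -1.10 to 0.48, edgeR adjusted p = 0.457), and 0.55 without TMM, the opposite direction.

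Among the iWAT libraries, the H2-O chains were highest where B cell transcripts were highest. Mouse 5 had 0.525 RPKM of H2-Ob and 0.307 of H2-Oa, and the largest summed RPKM of 8 B cell markers (2.84), with all 8 markers at their highest in that library. Mice 1 and 4 followed in H2-Ob, with 0.327 and 0.368 RPKM beside B cell sums of 2.12 and 1.61. H2-Oa was at 0.171 RPKM in mouse 1 but at 0.0543 (2 reads) in mouse 4, below the 0.0618 of mouse 2. Mice 2, 3 and 16 had H2-Ob at 0.150, 0.106 and 0.0846 beside sums of 0.980, 0.902 and 0.764. In eWAT these sums lay between 0.720 and 1.36 RPKM, with Pax5 and Blk, B cell regulators, at no more than 3 reads in every library, and in BAT between 0.737 and 1.51. In eWAT and BAT the highest values did not coincide. H2-Ob was highest in mouse 3 of eWAT (0.306 RPKM) beside a sum of 1.22, below the 1.36 of mouse 16, and in BAT mouse 18 had the largest sum with H2-Ob at 0.155, the second lowest, while H2-Oa was highest (0.221) in mouse 16, which had the lowest sum. The part of B cells in the H2-O values was not tested, and none of the other 8 members was highest in mouse 5 of iWAT, although 6 of them had it among their top 2 libraries.

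**Figure D3:**
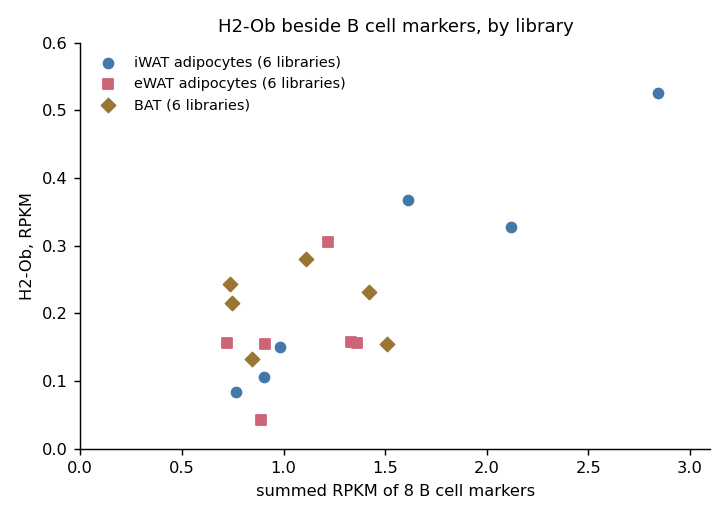
H2-Ob RPKM against the summed RPKM of 8 B cell markers in each of 18 libraries, by tissue. The iWAT libraries stretch from 0.764 and 0.0846 (mouse 16) to 2.84 and 0.525 (mouse 5), while eWAT and BAT stay below 1.52 on the marker axis.

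Ciita, the transactivator that switches the family on, was expressed at a low level in the same order. Its RPKM was 0.847 to 1.18 (median 0.918) in iWAT, 1.47 to 2.89 (median 1.82) in eWAT and 0.0835 to 0.290 (median 0.201) in BAT, where it rested on 13 to 76 reads. The tissues did not overlap, and the log2 fold change was -1.01 (SE 0.15) for iWAT over eWAT, 1.68 (SE 0.18) for iWAT over BAT and 2.72 (SE 0.20) for eWAT over BAT. The deposited row (chr16:10480165-10527657 in mm9) overlaps Dexi on the opposite strand, and the strand setting of the counting is not given in the sources used here.

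The DNA-binding partners of Ciita gave a mixed picture. Of 7 genes of the promoter complex, 3 were higher in iWAT and 2 in eWAT (edgeR), beside 34.1% and 34.5% of all genes. Nfya, a subunit of the Y box factor NF-Y, had the order of Ciita, at 3.74 RPKM in iWAT, 8.77 in eWAT and 1.88 in BAT. Its log2 fold changes all passed, at -1.22 (SE 0.10) between the white depots, 0.38 (SE 0.10) for iWAT over BAT and 1.63 (SE 0.10) for eWAT over BAT. Rfxap, a subunit of the X box factor RFX, was higher in iWAT (6.12 RPKM) than in eWAT (4.57), with a log2 fold change of 0.42 (SE 0.13). Against BAT, 3 genes were called higher and 2 lower in iWAT, and likewise in eWAT, near the shares of all genes (38.1% and 37.2% for iWAT, 41.1% and 41.4% for eWAT). These counts rest on TMM scaling, since 6 of the 7 had a higher mean RPKM in each white depot than in BAT. The other one, Nfyc, an NF-Y subunit, was at 1.55 RPKM in iWAT, 1.66 in eWAT and 3.001 in BAT (log2 fold change -1.56, SE 0.11, for iWAT over BAT). Rfxank, an RFX subunit, was called higher in BAT against both, but its mean RPKM was lower there (3.89, against 5.00 in iWAT and 4.29 in eWAT), so its direction turned with the scaling.

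Interferon-gamma itself was barely detected. Ifng had 0 to 5 reads per library in iWAT and at most 1 read in eWAT and BAT. Of the 6 tested genes of its receptor and signal path, 2 were higher in iWAT and 1 in eWAT. Among all genes the shares were 34.1% and 34.5%. Ifngr1, a receptor chain, was at 44.9 RPKM in iWAT and 39.2 in eWAT (log2 fold change 0.20, SE 0.08), and Ifngr2, the other chain, was at 6.50 and 13.1 (-1.01, SE 0.06). The receptor chains thus differed in opposite directions, with the Ifngr1 level higher where class II was lower. All 6 were higher in iWAT than in BAT and 5 in eWAT than in BAT, led by Irf1, an interferon-induced activator of Ciita, at 26.3, 21.1 and 2.38 RPKM in iWAT, eWAT and BAT. Of all genes, 38.1% were higher in iWAT than in BAT and 41.1% in eWAT than in BAT.

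Ratios within a library showed where members did not change by equal amounts. Library scaling touches them only through the added 0.1 RPKM, which weighs most on genes near that level. Of 11 ratios, 7 differed between the white depots, 6 between iWAT and BAT, and 8 between eWAT and BAT (two-sided exact permutation tests, Benjamini-Hochberg adjusted over 33 tests). With 6 samples against 6 the smallest possible p was 0.00216, and adjusted it came to 0.00549. Ratios are given as mean ± SD of 6 libraries.

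Relative to the I-A beta chain, the I-E beta chain was highest in BAT and lowest in eWAT. H2-Eb1 over H2-Ab1 was 0.727 ± 0.0252 in eWAT, 0.819 ± 0.0381 in iWAT and 0.992 ± 0.0889 in BAT, and each pair of tissues differed (adjusted p = 0.00549 for both comparisons with eWAT and 0.0119 for iWAT against BAT, exact permutation test). The white depots did not overlap in this ratio but nearly touched, since the lowest iWAT and the highest eWAT value both round to 0.767. Cd74 over H2-Ab1 was 2.23 ± 0.134 in iWAT, 2.32 ± 0.0951 in eWAT and 2.05 ± 0.264 in BAT, and no comparison passed (adjusted p of 0.0652 or more, exact permutation test). The mean log2 difference of that ratio was -0.06 between the white depots. H2-Aa over H2-Ab1 was 0.442 ± 0.0174, 0.417 ± 0.0154 and 0.424 ± 0.0719 in iWAT, eWAT and BAT, and the white depots differed with overlap (adjusted p = 0.034, exact permutation test).

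The rows of the beta and alpha chains of H2-DM parted in BAT, where H2-DMb1 rested on 21 to 67 reads. The split of reads among these overlapping rows is uncertain, as said above, and the ratios carry that limit. H2-DMb1 over H2-DMa was 2.35 ± 0.309 in iWAT, 1.96 ± 0.216 in eWAT and 0.938 ± 0.155 in BAT. The level of one chain against the other depends on row length, and per kilobase of the longest GENCODE transcript BAT had 0.956 RPKM of H2-DMb1 against 1.42 of H2-DMa. Both white depots lay above BAT without overlap (adjusted p = 0.00549, exact permutation test), and their difference from each other did not pass (adjusted p = 0.0617). H2-DMa over H2-Ab1 was lower in eWAT (0.0649 ± 0.00608) than in iWAT (0.0812 ± 0.00824) and BAT (0.086 ± 0.0108), with adjusted p = 0.0119 and 0.0102 (exact permutation test). H2-DMb2 over H2-DMb1 was higher in BAT (0.638 ± 0.105) than in iWAT (0.497 ± 0.0453) and eWAT (0.470 ± 0.0399), but from counts plus 0.5 neither difference passed (adjusted p = 0.123 and 0.0526). H2-Ob over H2-DMb1, an inhibitor chain over its target's beta chain, was 0.0228 ± 0.0112 in iWAT, 0.00905 ± 0.00284 in eWAT and 0.282 ± 0.0616 in BAT, again without overlap against BAT. The white depots differed in it as well (adjusted p = 0.015, exact permutation test), a call lost when the ratio was taken from counts plus 0.5 (adjusted p = 0.0526). The pseudocount of 0.1 RPKM is close to the level of H2-Ob in all tissues.

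Relative to its target H2-Ab1, Ciita was lower in eWAT than in iWAT. Their ratio was 0.0128 ± 0.00168 in iWAT and 0.00901 ± 0.00144 in eWAT, with no overlap (adjusted p = 0.00549, exact permutation test). In BAT it was 0.0216 ± 0.0059, but the difference from both white depots was lost when the ratio was taken from counts plus 0.5 (adjusted p = 0.378 against iWAT and 0.0504 against eWAT).

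**Figure D4:**
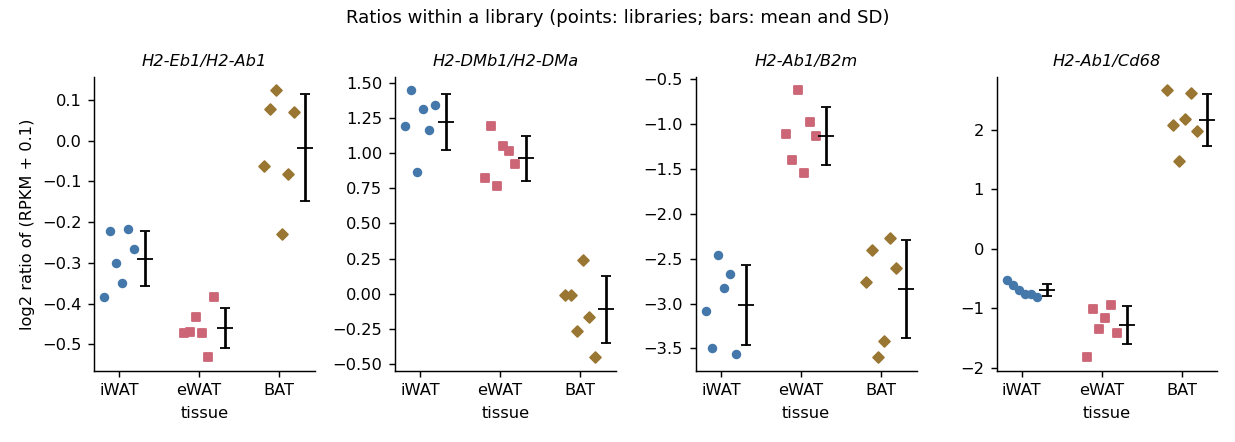
Log2 ratio of (RPKM + 0.1) of 4 gene pairs in each library (points), with mean and SD (bars), 6 libraries per tissue; each panel has its own axis. H2-Eb1 over H2-Ab1 is lowest in eWAT, H2-DMb1 over H2-DMa falls to about 0 in BAT, H2-Ab1 over B2m stands out in eWAT, and H2-Ab1 over Cd68 is highest in BAT.

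Class I presentation did not share the class II order between the white depots. Of 9 class I genes, 6 were higher in iWAT than in eWAT and 0 in eWAT (edgeR), beside 34.1% and 34.5% of all genes. B2m, the light chain of every class I molecule, was at 688.1 ± 74.7 RPKM in iWAT, 512.4 ± 101.9 in eWAT and 86.2 to 107.9 in BAT. H2-K1, a heavy chain, was at 567.7, 416.2 and 78.1 RPKM, and Nlrc5, the class I counterpart of Ciita, at 2.90, 2.01 and 0.928. H2-D1, the other heavy chain, did not pass between the white depots (log2 fold change 0.13, SE 0.10). All 9 were higher in each white depot than in BAT, beside 38.1% of all genes in iWAT and 41.1% in eWAT. H2-Ab1 over B2m was 0.128 ± 0.0384 in iWAT, 0.465 ± 0.107 in eWAT and 0.147 ± 0.0503 in BAT, and eWAT lay above both others without overlap (adjusted p = 0.00549, exact permutation test). For iWAT against BAT the adjusted p was 0.6.

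Macrophage transcripts moved with the class II genes and, for most markers, over a wider range. All 14 macrophage markers were higher in eWAT than in iWAT (median log2 fold change -2.22), 13 were higher in iWAT than in BAT (2.75), all but the scavenger receptor Cd163, and 14 in eWAT than in BAT (4.83). The shares of all genes in these directions were 34.5%, 38.1% and 41.1%. The summed RPKM of the markers was 592.7 to 1137 in iWAT, 3438 to 5373 in eWAT and 42.6 to 84.6 in BAT, and no marker was at 3 reads or fewer in every library of a tissue. Lyz2, a lysozyme of macrophages, stood at 440.7, 2212 and 32.3 RPKM, and Cd68, a lysosomal protein of these cells, at 140.0 ± 32.8, 567.4 ± 93.2 and 3.11 ± 0.813. Adipocyte markers went the other way between the white depots, with 7 of 7 higher in iWAT and sums of 11480 to 16150 RPKM against 2552 to 7948. Of all genes, 34.1% were higher in iWAT. Of 4 mesothelial markers, Msln and Upk3b were higher in eWAT than in iWAT, with means of 0.310 and 0.637 RPKM in eWAT. Lrrn4, the most abundant of them, was at 2.31 RPKM in iWAT, 1.99 in eWAT and 8.30 in BAT and did not pass between the white depots (log2 fold change 0.23, SE 0.11), and Krt19 had too few reads to be tested. The part of other cells in the class II values was not tested.

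Class II and macrophage transcripts were not in a fixed proportion. The summed members over the summed macrophage markers came to 0.488 ± 0.0373 in iWAT, 0.275 ± 0.0656 in eWAT and 1.003 ± 0.155 in BAT. H2-Ab1 over Cd68 was 0.619 ± 0.0468, 0.417 ± 0.0871 and 4.64 ± 1.35 in the same order, and all 3 comparisons differed without overlap (adjusted p = 0.00549, exact permutation test). Relative to the summed markers and to Cd68, class II was highest in BAT, where both were lowest. This did not hold for every marker. Cd163 and Mertk had smaller log2 fold changes for eWAT over BAT (0.65 and 1.75) than H2-Ab1 (3.42), whereas the other markers had larger ones.

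Dendritic cell markers gave a mixed picture. Of 7 that could be tested, 3 were higher in iWAT and 3 in eWAT, beside 34.1% and 34.5% of all genes. Itgax (CD11c), which macrophages of obese fat also carry, was at 16.3 ± 1.6 RPKM in iWAT, 89.8 in eWAT and 0.354 in BAT, and it had the largest fold of the list in each comparison (log2 fold change -2.46, 4.90 and 7.39). Clec10a, a lectin of dendritic cells and macrophages, followed at 8.56, 18.03 and 0.502 RPKM. Zbtb46, a transcription factor of conventional dendritic cells that endothelium also expresses, went the other way, at 1.46, 0.533 and 1.95 RPKM, and each of its differences passed. Flt3, Cd209a and Siglech had too few reads to be tested, with Flt3 at 1 to 14 reads in any library, and the part of dendritic cells in the class II values was not tested. Endothelial markers, 4 of 4, were higher in iWAT than in eWAT, beside 34.1% of all genes.

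The 7 genes that prepare peptide and invariant chain, 6 proteases and the thiol reductase Ifi30, followed the class II order. All 7 were higher in eWAT than in iWAT (median log2 fold change -1.71), and all 7 were higher in each white depot than in BAT (2.51 for iWAT and 4.24 for eWAT). Among all genes, 34.5%, 38.1% and 41.1% went in these directions. Ctss, the cathepsin that trims the invariant chain in professional presenting cells, was at 180.1, 821.1 and 5.67 RPKM in iWAT, eWAT and BAT. It had the largest fold of the list in each comparison, with log2 fold changes of -2.18 (SE 0.17), 4.38 (SE 0.18) and 6.59 (SE 0.20). Ctsb and Ctsd, lysosomal cathepsins of most cells, differed less, with -1.34 (SE 0.12) and -1.42 (SE 0.12) between the white depots.

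Of 8 genes of co-stimulation and class II turnover, 6 were higher in eWAT and 1 in iWAT, beside 34.5% and 34.1% of all genes. March1, the ubiquitin ligase that removes class II from the surface, had the largest fold between the white depots, at 0.861 and 3.16 RPKM (log2 fold change -1.87, SE 0.19), and was at 0.104 in BAT. Icam1, an adhesion partner of T cells, was at 18.9, 40.4 and 1.96 RPKM in iWAT, eWAT and BAT. Cd274, the inhibitory ligand PD-L1, was the gene higher in iWAT, at 7.04 against 5.25 RPKM (0.43, SE 0.14), and at 5.96 RPKM in BAT it was also higher than in eWAT, a direction that the RPKM means shared. Against BAT, 6 of the 8 were higher in iWAT and 7 in eWAT, beside 38.1% and 41.1% of all genes.

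Transcripts of the T cells that read class II were scarce. Cd3d, Cd3e and Cd3g, chains of the T cell receptor complex, had at most 3 reads in every eWAT library, and in any library they had no more than 13. Lag3, a receptor for class II that other lymphocytes carry as well, was at 2.46 RPKM in iWAT, 1.13 in eWAT and 1.04 in BAT, higher in iWAT than in eWAT (log2 fold change 1.13, SE 0.15). Cd28, the T cell receptor for Cd80 and Cd86, went the other way (0.145 and 0.460 RPKM, log2 fold change -1.66, SE 0.23). It had 64 to 123 reads per eWAT library, where the Cd3 chains were near absent, and which cells it came from was not tested. Cd4 was at 0.152, 0.200 and 0.0982 RPKM in iWAT, eWAT and BAT, and none of its comparisons passed. In the class II region itself, Brd2, a bromodomain gene that lies among the H2 genes, was at 36.6 and 36.3 RPKM in the white depots (log2 fold change 0.02; adjusted p = 0.870 with edgeR) and at 12.2 in BAT.

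**Figure D5:**
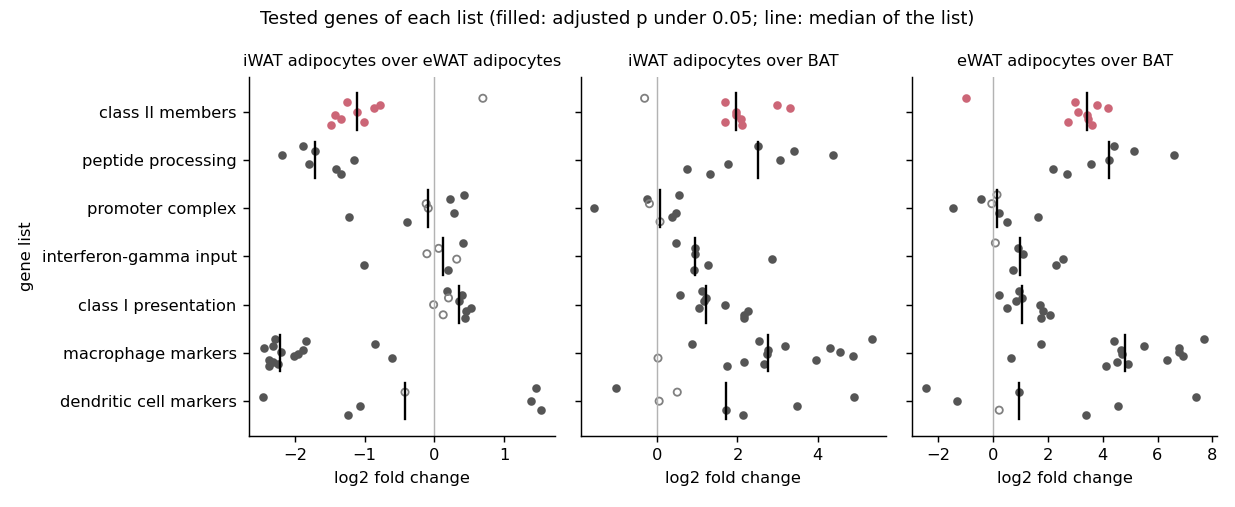
Log2 fold change of each tested gene (points; filled, adjusted p under 0.05) in 7 gene lists and 3 tissue comparisons, with a line at each list's median. Members, peptide processing and macrophage markers lie on the eWAT side in the left panel, with medians of -1.11, -1.71 and -2.22, while class I presentation has a median of 0.35; the scales of the panels differ.

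Within a tissue, the highest and lowest values of several members fell in the same mouse. Of the 8 members other than H2-Oa and H2-Ob, 7 were highest in mouse 3 of iWAT and 6 were lowest in mouse 2. In eWAT, 5 of the 8 were highest in mouse 5 and 3 in mouse 3, while the lowest values were spread over mice 1, 4 and 16 (4, 2 and 2 members). Of these libraries, mice 1 and 16 were in lane 2 and mice 3, 4 and 5 in lane 1, so mouse and lane cannot be told apart in the eWAT order. In BAT, 6 were highest in mouse 17 and 5 were lowest in mouse 16. The spread was widest in BAT, where the coefficient of variation of these 8 ran from 21.8% (H2-Aa) to 37.2% (H2-DMb2). In iWAT it was 8.54% for H2-DMb1 and 22.5% for H2-Aa, the lowest and highest of the 8 there.

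Relations across the 6 mice of a tissue were tested for 6 gene pairs in 3 tissues, on log2(RPKM + 0.1). Only Cd74 with H2-Ab1 in iWAT passed after adjustment over 18 tests, with Pearson's r of 0.959 (exact permutation p = 0.00139, adjusted p = 0.025). Its Spearman's rho was 1, at the threshold without passing it (exact permutation p = 0.00278, adjusted p = 0.05). Without the 2 mice farthest from the median of Cd74, r was 0.954. On TMM-scaled RPKM no pair passed. The same pair gave r of 0.962 in eWAT and 0.926 in BAT (exact permutation, adjusted p = 0.0667 and 0.0687). Cd68 with H2-Ab1 gave r of 0.950 in iWAT (adjusted p = 0.0667, exact permutation) and -0.03 in eWAT (adjusted p = 0.962), and the difference between these was not tested. Ciita with H2-Ab1 gave 0.830, 0.694 and 0.574 in iWAT, eWAT and BAT, none of which passed, and the iWAT value dropped to 0.212 without the 2 mice farthest from the median of Ciita. Lanes hold 2 or 4 libraries of a tissue in white fat, too few for a value within a lane, so the part of lane in these values was not tested.

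The difference between the white depots was seen within each lane. Lane 1 held 2 iWAT and 4 eWAT libraries and lane 2 held 4 and 2. In lane 1, H2-Ab1 was at 79.2 to 114.2 RPKM in iWAT and 222 to 280 in eWAT, and in lane 2 at 66.0 to 97.2 and 191 to 204. The same 8 members separated the depots without overlap in both lanes. The share of all genes that did so within a lane was not worked out, and groups of 2 and 4 libraries separate easily.

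The genes whose pattern was most like that of H2-Ab1 were searched among 12236 genes with a mean of at least 1 RPKM, by Pearson's r of log2(RPKM + 0.1). Over the 18 libraries, the closest were LOC641240 (r = 0.997), whose row overlaps H2-Ab1, LOC100503665 (0.994), Bcl2a1d and Bcl2a1b (both 0.993), and Ticam2 (0.993). The members Cd74 and H2-Eb1 reached 0.998, and H2-Oa and H2-Ob -0.29 and -0.13. Such values mostly restate the tissue order, which many genes share, and the libraries share depth and preparation within a tissue. On deviations from the tissue means, the 4 closest to H2-Ab1 outside the set were LOC641240 (0.947), Manf (0.882), Creld2 (0.881) and LOC639316 (0.868), whose row overlaps H2-DMb1. Manf and Creld2 encode proteins of the endoplasmic reticulum. Members ranked as H2-Eb1 (0.969), Cd74 (0.938), H2-Aa (0.930), H2-DMa (0.906), H2-DMb1 (0.863), H2-DMb2 (0.768), Ciita (0.614), H2-Ob (0.323) and H2-Oa (0.0046).

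Ciita had other neighbours. Over the 18 libraries they were Slc38a7 (r = 0.993), Rnpep, Pld4, LOC100503168 and LOC100504337 (0.991 each). On deviations from the tissue means they were 4921514A10Rik (0.914), Sh3bp2 (0.882), Smcr8 (0.875), Rnpep (0.874) and Slc15a4 (0.860), all closer to Ciita than any class II gene was, of which Cd74 came nearest (0.760).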

How the data were processed

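RNA-seq libraries were made by the authors with a NEBNext Ultra kit and sequenced on a HiSeq instrument; the submitters' processing notes name cutadapt 1.16 and HISAT2 2.1.0 with mm9 (NCBIM37). The authors deposited, per transcript row, a whole-number read count and an RPKM value; how reads were counted and on which strand is not given in the sources used here. The row with the highest mean RPKM stood for a symbol. Tissues were compared on counts with edgeR 4.0.16 (quasi-likelihood test, TMM, mean count of at least 10, 12 samples per comparison, Benjamini-Hochberg over all genes tested, threshold 0.05) in R 4.3.3, checked on simulated data; SE values were derived from the F statistics. Ratios and correlations used log2(RPKM + 0.1) and two-sided exact permutation tests in Python 3.11.15 (scipy 1.17.1). Alternatives used DESeq2 1.42.0 and limma 3.58.1. Read counts and floors (3 reads) cover counting error only, and p-values measure the spread between these samples. The members, gene lists and tests were chosen with earlier results of these data known. Genes named beside the members are those of highest RPKM and largest fold in each list, those with almost no reads, those in the ratios and correlations, and the 5 most like H2-Ab1 or Ciita, apart from 2 genes that are not reported here; Cd163, Ifng, Rfxank, Zbtb46, Cd274, Lag3, Cd28 and the regulators of B cells were picked after their values were seen.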

Additional observations from a re-analysis of the deposited data

Results flagged for a closer look

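In 63 groups of 6 libraries (10 members and 11 log2 ratios in 3 tissues), the highest or the lowest library stood far from the other 5 in 2, where chance gives about 1 in 20 groups. The log2 ratio of H2-DMa to H2-Ab1 was -3.71 in mouse 1 of eWAT, above a range of -4.07 to -3.94 in the others. The log2 ratio of H2-Oa to H2-Ob was -1.6 in mouse 4 of iWAT, below a range of -0.69 to -0.54 in the others, and it rests on 2 reads of H2-Oa. None of the members' own RPKM values stood apart in this way.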

How the results depend on the processing

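The 8 members that differed between tissues kept their direction and their call in all 3 comparisons with DESeq2, without TMM scaling, with limma on log2(RPKM + 0.1) or log2(RPKM + 1), without the count filter, with rows summed, with all 18 libraries in 1 fit and, for white fat, with lane as a covariate. In 36 fits that each left out 1 library, the count of members called was unchanged, 8 between the white depots, 8 for iWAT adipocytes over BAT and 9 for eWAT adipocytes over BAT. With a threshold of 1 on the log2 fold change, 3 members passed between the white depots (Cd74, H2-Ab1 and H2-Aa). Mouse number as a replicate block also gave 8, 8 and 9 members, with H2-Ob at -1.47 for eWAT adipocytes over BAT. Libraries of equal number deviated together no more than others (r from -0.241 to 0.42 over 6 pairs of white depots, of which 1 was the best match of its library), so the numbers were not taken to pair samples. With no filter, H2-Oa was also called higher in BAT than in eWAT adipocytes, 10 members in all. For iWAT adipocytes over BAT, H2-Ob turned to 0.55 without scaling, 0.093 with limma and 0.1 RPKM, and 0.049 with 1 RPKM. H2-Aa over H2-Ab1 turned to -0.021 (iWAT adipocytes over BAT, pseudocount 1) and 0.0031 (eWAT adipocytes over BAT, counts), H2-DMa over H2-Ab1 to 0.013 (iWAT adipocytes over BAT, counts), and H2-Oa over H2-Ob to -0.0043 (white depots) and -0.021 (iWAT adipocytes over BAT) with a pseudocount of 1. None of these passed a test. From counts plus 0.5, 6, 4 and 6 ratios differed. On TMM-scaled RPKM, 0 correlations passed, with 4 at an unadjusted exact permutation p under 0.05, as on plain RPKM. The causes were not tested. Depth limits H2-Oa and H2-Ob in every tissue, and Ciita and the H2-DM chains in BAT.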
